A study of Mus musculus with 6 samples.

Results

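The 10 genes examined here are widely used to mark pericytes and vascular smooth muscle cells, and were measured in cultured mouse cochleae. The members were the rows of the deposited count table with the symbols Pdgfrb, Rgs5, Cspg4, Kcnj8, Abcc9, Acta2, Des, Anpep, Vtn and Myh11, which makes 10 of 24421 symbols, and all 10 passed the low-count filter that left 15988 genes for testing. RNA was sequenced from cochlear explants of wild-type mice at postnatal day 2, in 3 control and 3 neomycin samples. Explants of both groups were cultured for 12 h before the treatment step and for 5 days after it, with 10 µM EdU, a label of newly made DNA, in the medium. The neomycin samples were exposed for 6 h to 1 mM neomycin, an aminoglycoside antibiotic that kills hair cells (HCs). The labels carry the same protocol text for all 6 samples, so the control samples were taken as untreated from their titles and treatment labels. Each sample was a pool of 6 to 8 cochleae. Nothing in the labels says that the pools were separate cultures, so that p-values measure only the spread between these samples, which may be technical. The study's methods took out the modiolus, the tectorial membrane and the early stria vascularis before culture, and the modiolus and stria vascularis hold many of the vessels of the cochlea.

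Pericytes wrap the walls of capillaries, and vascular smooth muscle cells ring arterioles and larger vessels. Together they are called mural cells. Endothelial cells release PDGF-B, which binds the receptor Pdgfrb on mural cells and keeps them on the vessel, and the contractile state of mural cells helps to set local blood flow. In the cochlea, pericytes are known for lining the capillaries of the lateral wall, and many genes used as their markers are also transcribed in fibroblasts, glia or other cells. In bulk samples of this kind, fewer cells of a type and less RNA per cell cannot be told apart.

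The 2 members called lower, Kcnj8 and Abcc9, are neighbours on chromosome 6. Kcnj8 lies at chr6:142564837-142571614 and Abcc9 at chr6:142587862-142702315 (GENCODE genes on GRCm38, the assembly also named mm10), both on the minus strand, with 16.2 kb between them. The promoter windows of this pair are shown with that of Des, the member that moved the other way, and that of Acta2, the smooth muscle actin. Each runs from 250 bases before to 50 bases after the RefSeq start, 5′ to 3′ on the strand of the gene, and capitals mark a motif that was searched for and found. The windows are chr6:142571565-142571864 (minus strand) for Kcnj8, chr6:142702225-142702524 (minus strand) for Abcc9, chr1:75360042-75360341 (plus strand) for Des and chr19:34255324-34255623 (minus strand) for Acta2.
Kcnj8: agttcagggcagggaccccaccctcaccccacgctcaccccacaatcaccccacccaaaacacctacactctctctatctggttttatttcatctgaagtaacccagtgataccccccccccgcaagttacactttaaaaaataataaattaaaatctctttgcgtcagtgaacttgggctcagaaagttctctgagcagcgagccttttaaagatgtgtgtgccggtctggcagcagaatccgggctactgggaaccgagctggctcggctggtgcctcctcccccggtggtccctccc
Abcc9: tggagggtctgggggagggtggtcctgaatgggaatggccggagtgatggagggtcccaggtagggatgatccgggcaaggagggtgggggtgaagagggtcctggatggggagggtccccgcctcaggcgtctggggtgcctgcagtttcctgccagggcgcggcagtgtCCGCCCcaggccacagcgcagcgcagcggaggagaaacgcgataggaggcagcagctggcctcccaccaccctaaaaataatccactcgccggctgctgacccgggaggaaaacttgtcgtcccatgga
Des: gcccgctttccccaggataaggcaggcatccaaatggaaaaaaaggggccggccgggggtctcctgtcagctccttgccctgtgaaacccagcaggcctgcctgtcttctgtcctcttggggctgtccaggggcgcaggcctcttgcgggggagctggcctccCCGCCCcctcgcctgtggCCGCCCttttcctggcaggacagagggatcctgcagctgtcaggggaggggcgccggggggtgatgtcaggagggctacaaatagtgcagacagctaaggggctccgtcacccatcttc
Acta2: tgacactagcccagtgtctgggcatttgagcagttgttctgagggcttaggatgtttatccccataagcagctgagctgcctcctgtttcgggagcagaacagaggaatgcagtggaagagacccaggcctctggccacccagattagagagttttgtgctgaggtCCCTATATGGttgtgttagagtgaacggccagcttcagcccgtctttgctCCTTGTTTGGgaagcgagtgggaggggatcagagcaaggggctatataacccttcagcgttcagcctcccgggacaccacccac

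RefSeq promoter windows were matched for 8 of the 10 members, all but Pdgfrb and Myh11. The motifs searched on both strands were the CArG box bound by serum response factor, a CArG-like form with 1 G or C in its A/T core, the RBPJ motif GTGGGAA, the forkhead motif TGTTTAC, the TATA box TATAAA and the GC box GGGCGG. In the windows shown, Kcnj8 held none of them, Abcc9 held a GC box at position -79 from the start, Des held GC boxes at -87 and -69, and Acta2 held CArG-like matches at -84 (CCCTATATGG) and -34 (CCTTGTTTGG). The GC box was in 4 member windows (Cspg4, Abcc9, Des and Anpep) and in 35.7% of all 32851 windows. The CArG-like form was in 8.5% of all windows and in 1 member, the TATA box in 13.6% and in 1 member (Vtn, as overlapping matches on opposite strands), and the CArG box (1.63% of windows), RBPJ motif (6.38%) and forkhead motif (3.65%) were in 0 of the 8. GC content was 53.3% for Kcnj8 and 65.7% for Abcc9, against a median of 52.7% over all windows. A match is a string of letters and no evidence of binding.

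Levels were taken as CPM, the counts of a gene scaled to a common library size with edgeR's trimmed mean of M values (TMM). A gene was called higher or lower in neomycin samples when edgeR's quasi-likelihood test gave a Benjamini-Hochberg adjusted p under 0.05 over all genes tested and the fold change was over 1.5. By this rule 2 of the 10 members were lower, against 6.6% of all genes tested, and 0 were higher, against 2.24%. With the p left unadjusted and the fold change kept, 3 members (Myh11 added) were lower and 0 higher. The share of all genes passing this unadjusted rule was not computed, so these 3 cannot be read against the 6.6% above. DESeq2 and limma-voom called the main counts of 2 and 0. By the adjusted p alone 3 were lower (16.1% of all genes) and 1 was higher (12.9%). The groups did not overlap for 5 of 10, against 43.5% of all genes, a share close to the background. The log2 fold change was below 0 for 8 members and above 0 for 2, against 8074 below and 7914 above over all 15988 genes tested. Rgs5 and Anpep, among the 8, were each at -0.05 and turned sign in some alternative analyses. The median was -0.38 for the members and -0.00408 over all genes tested.

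**Figure D1:**
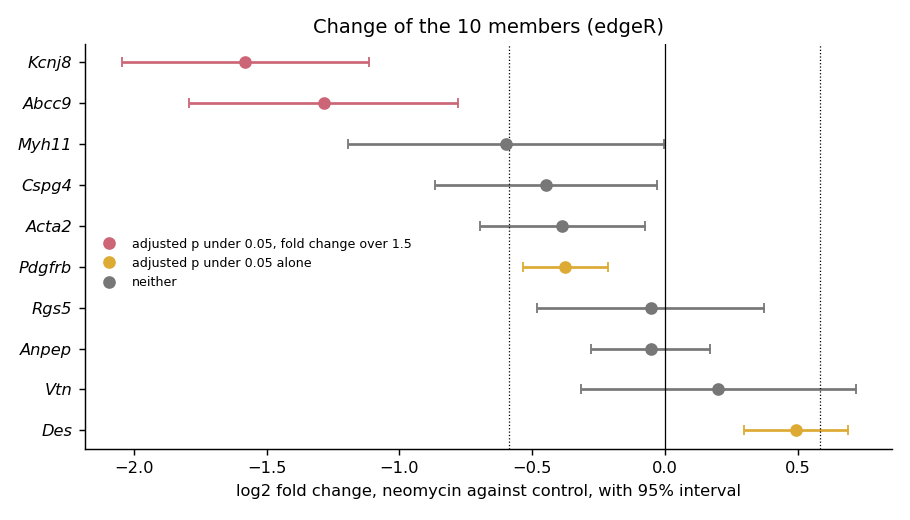
Log2 fold change of each of the 10 genes in neomycin against control samples (horizontal axis) with its 95% interval from edgeR, n = 3 per group. Dotted lines stand at a fold change of 1.5, and only the intervals of Kcnj8 (-1.58) and Abcc9 (-1.29) lie wholly to the left of the lower line.

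Kcnj8 and Abcc9 encode the subunits of the ATP-sensitive potassium (KATP) channel of mural cells. Kcnj8 encodes its pore and Abcc9 its regulatory sulfonylurea receptor, and opening of the channel hyperpolarizes the cell and relaxes the vessel. Kcnj8 was at 5.64, 5.60 and 5.91 CPM in the control samples and at 1.92, 2.46 and 1.34 CPM in the neomycin samples. The controls lay close together and every neomycin sample was below all of them. The mean fell from 5.71 ± 0.168 to 1.91 ± 0.559 CPM (SD, n = 3), which is 2.99-fold lower, or a log2 fold change of -1.58 (SE 0.22, 95% interval -2.05 to -1.11, edgeR adjusted p = 0.000341). The raw counts behind these values were 389, 292 and 332 in control and 102, 145 and 72 in neomycin samples.

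Abcc9 was at 6.12, 5.41 and 3.88 CPM in control and at 2.62, 1.58 and 2.14 CPM in neomycin samples. Its control samples were more spread than those of Kcnj8, but the groups again did not overlap. The mean fell from 5.13 ± 1.14 to 2.11 ± 0.521 CPM (SD, n = 3), 2.44-fold lower, with a log2 fold change of -1.29 (SE 0.23, 95% interval -1.79 to -0.78, edgeR adjusted p = 0.00208). Its exons share 158 bases with the antisense gene 5330439B14Rik, which had 0 to 2 reads in any sample.

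The related channel subunits Kcnj11 and Abcc8, which form the KATP channel of neurons and endocrine cells, were not called. Kcnj11 was at 13.1, 10.3 and 11.5 CPM in control and 12.4, 12.1 and 12.2 CPM in neomycin samples (log2 fold change 0.07, edgeR adjusted p = 0.688). Abcc8 was at 3.39, 2.07 and 2.33 against 2.00, 3.90 and 2.10 CPM (log2 fold change 0.04, edgeR adjusted p = 0.941). For both of these genes the groups overlapped.

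**Figure D2:**
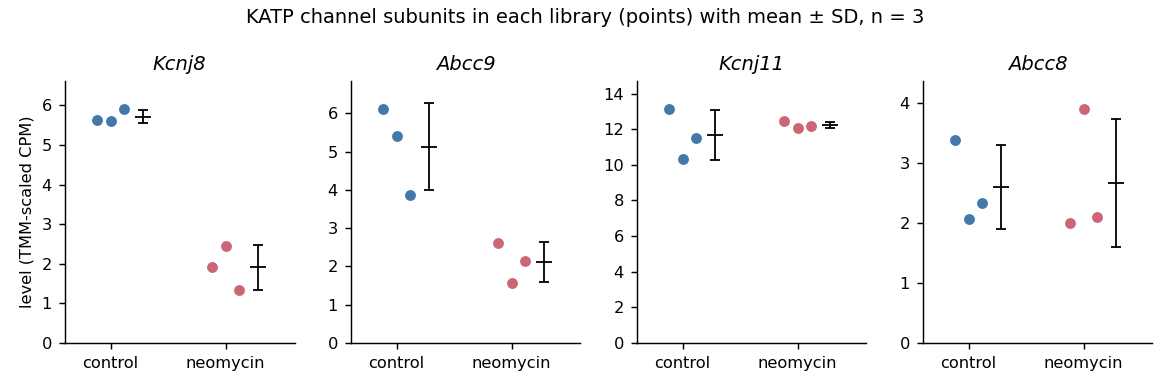
Level of the 4 KATP channel subunit genes in each library (points, TMM-scaled CPM, vertical axis from 0) with the mean and SD of each group, n = 3. Kcnj8 and Abcc9 have every neomycin sample below every control sample, while the groups overlap for Kcnj11 and Abcc8.

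Among the cell-surface members, Pdgfrb, the receptor for PDGF-B, was at 125.6, 111.8 and 108.8 CPM in control and 90.4, 90.3 and 86.4 CPM in neomycin samples. The groups did not overlap. The mean went from 115 ± 8.97 to 89.1 ± 2.31 CPM (SD, n = 3), and the log2 value changed by -0.37 (SE 0.07, 95% interval -0.54 to -0.21, edgeR adjusted p = 0.00342), which passed the adjusted p but not the fold change of 1.5. Pdgfrb lies at chr18:61045150-61085061 on the plus strand.

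Cspg4, the proteoglycan NG2 on the surface of pericytes and glial progenitors (chr9:56865033-56899870, plus strand), was at 4.55, 3.47 and 3.49 CPM in control and 2.94, 2.98 and 2.53 CPM in neomycin samples. The groups did not overlap, yet the test was not passed (log2 fold change -0.45, SE 0.19, edgeR adjusted p = 0.0997). Its log2 fold change was -0.23 once gene length was corrected for. Anpep, aminopeptidase N (chr7:79821803-79861059, minus strand), was at 76.3, 67.6 and 59.3 CPM against 57.6, 65.2 and 73.2 CPM. These ranges overlapped almost wholly, and the log2 fold change of -0.05 had a 95% interval of -0.28 to 0.17 (edgeR adjusted p = 0.735). Its sign turned without control replicate 1 (0.05) or neomycin replicate 1 (0.03).

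Rgs5, a regulator that shortens G-protein signaling in mural cells (chr1:169655501-169695813, plus strand), was at 11.9, 7.44 and 6.35 CPM in control and 9.0, 8.12 and 7.76 CPM in neomycin samples. Control replicate 1 stood above the other 5 samples. The log2 fold change was -0.05 (95% interval -0.48 to 0.38, edgeR adjusted p = 0.865), and without control replicate 1 it turned to 0.27 (edgeR adjusted p = 0.212, the lowest of a range up to 0.984 over the alternatives). Its paralog Rgs4 was at 97.7 ± 4.96 and 96.4 ± 7.05 CPM (SD, n = 3, edgeR adjusted p = 0.879). Of 10 related RGS genes of the R4 family, Rgs5 included, 8 were tested and 1 was called, Rgs1, which was higher.

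Of the cytoskeletal members, Des rose and the smooth muscle genes did not pass the test. Des encodes desmin, the intermediate filament of muscle and pericytes (chr1:75360329-75368579, plus strand). It was at 15.4, 17.6 and 16.9 CPM in control and 22.5, 23.3 and 24.4 CPM in neomycin samples, so every neomycin sample was above every control sample. The mean rose 1.41-fold from 16.6 ± 1.10 to 23.4 ± 0.946 CPM (SD, n = 3), and the log2 value changed by 0.49 (SE 0.09, 95% interval 0.30 to 0.69, edgeR adjusted p = 0.00221), below the fold change of 1.5. Des shares 220 exon bases with the antisense gene Gm15179, which had 0 to 5 reads per sample. Vim, encoding vimentin, the related filament of mesenchymal cells, had a log2 fold change of -0.04 (edgeR adjusted p = 0.767).

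Acta2, smooth muscle alpha-actin (chr19:34241090-34255590, minus strand), was at 15.3, 16.4 and 12.1 CPM in control and 12.2, 9.13 and 12.1 CPM in neomycin samples. The groups overlapped, and the log2 fold change of -0.39 (SE 0.14, 95% interval -0.70 to -0.07) missed the threshold (edgeR adjusted p = 0.0609), which it passed in 6 of 15 alternative analyses (adjusted p from 0.0194 to 0.239). Actin genes are close copies, so reads of Acta2 could be shared with the others. Actg2, the enteric smooth muscle actin, was at 2.34 ± 0.159 and 2.59 ± 0.984 CPM (SD, n = 3, edgeR adjusted p = 0.735), and Acta1, the skeletal muscle actin, at 0.763 ± 0.375 and 1.29 ± 0.372 CPM (edgeR adjusted p = 0.166).

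Myh11, the smooth muscle myosin heavy chain (chr16:14194535-14291372, minus strand), was among the lowest members, at 2.10, 2.42 and 3.10 CPM in control and 1.37, 1.36 and 2.29 CPM in neomycin samples. Neomycin replicate 3 lay within the control range. The log2 fold change was -0.60 (SE 0.27, edgeR adjusted p = 0.120), and without neomycin replicate 3 it was -0.89 (edgeR adjusted p = 0.0460). Leaving out each replicate in turn gave -0.89 to -0.42, and the adjusted p ran from 0.0460 to 0.320 over all 15 alternatives. The non-muscle myosin Myh9 went from 169 ± 24.5 to 114 ± 1.72 CPM (log2 fold change -0.57, edgeR adjusted p = 0.00142), and Myh10 had a log2 fold change of -0.38 (edgeR adjusted p = 0.0216). Neither of these reached a fold change of 1.5.

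Vtn encodes vitronectin, a secreted matrix glycoprotein made by pericytes in the brain (chr11:78499091-78502324, plus strand). It was at 2.70, 1.94 and 2.72 CPM in control and 2.41, 3.61 and 2.44 CPM in neomycin samples. The groups overlapped, with a log2 fold change of 0.20 (95% interval -0.32 to 0.72, edgeR adjusted p = 0.560). Without neomycin replicate 2 the value was -0.02.

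**Figure D3:**
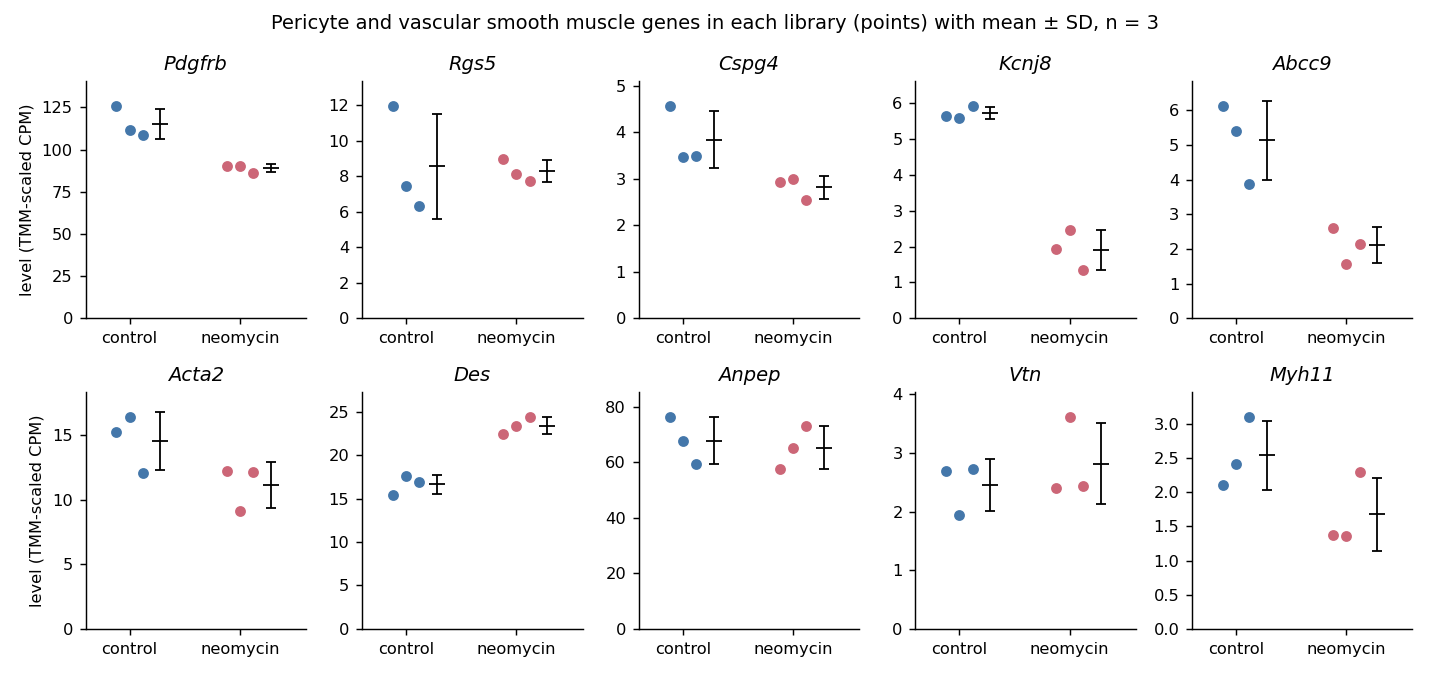
Level of each of the 10 genes in every library (points, TMM-scaled CPM, vertical axes from 0 and different for each gene) with the mean and SD of each group, n = 3. The control and neomycin points are apart for Pdgfrb, Cspg4, Kcnj8, Abcc9 and Des and overlap for the other 5 genes.

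Levels were compared between genes only per length, as CPM per kilobase of merged exons. Pdgfrb was highest, at 21.1 ± 1.64 in control and 16.3 ± 0.421 in neomycin samples (SD, n = 3), followed by Anpep at 16.4 ± 2.05 and 15.8 ± 1.89. Pdgfrb was above 82.2% of all genes tested. Acta2 (6.64 ± 1.02 and 5.09 ± 0.803) and Des (4.43 ± 0.293 and 6.23 ± 0.252) came next and changed places between the groups. Rgs5 followed at 1.89 ± 0.652 and 1.82 ± 0.140, Kcnj8 at 2.24 ± 0.0660 and 0.748 ± 0.219, and Vtn at 1.21 ± 0.220 and 1.39 ± 0.337. Kcnj8 was 5th in control and 7th in neomycin samples. The lowest were Abcc9 (0.613 ± 0.137 and 0.252 ± 0.0622), Cspg4 (0.321 ± 0.0519 and 0.236 ± 0.0208) and Myh11 (0.334 ± 0.0669 and 0.220 ± 0.0703), and Cspg4 and Myh11 were each above 11% of genes tested. Over all 6 samples, the ranges of neighbours in this order overlapped except between Anpep and Acta2, Des and Rgs5, and Vtn and Abcc9. Those ranges pool both groups and so include the differences between them. Within the control samples alone, neighbours overlapped only for Rgs5 and Kcnj8 and for Cspg4 and Myh11.

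**Figure D4:**
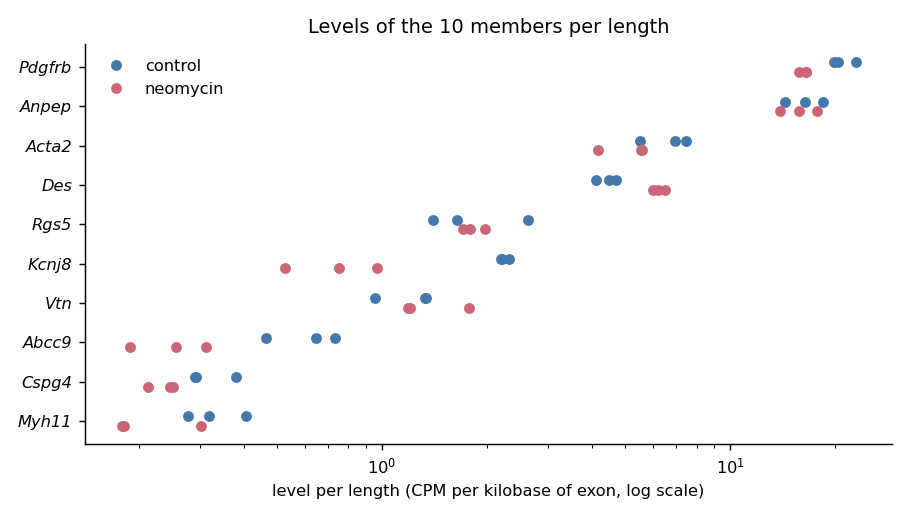
Level per length of the 10 genes in each control and neomycin library (points) on a log axis, in CPM per kilobase of exon. Pdgfrb and Anpep are at the top and Cspg4 and Myh11 at the bottom, and the control and neomycin points are most separated for Kcnj8 and Abcc9.

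Per length, the ratio of Kcnj8 to Pdgfrb was 0.0965, 0.108 and 0.117 in control and 0.0457, 0.0585 and 0.0334 in neomycin samples. That of Abcc9 to Pdgfrb was 0.0319, 0.0316 and 0.0233 against 0.0189, 0.0114 and 0.0162, and for both ratios the groups did not overlap. The ratio of Kcnj8 to Abcc9 ranged widely and overlapped, at 3.03, 3.40 and 5.01 against 2.41, 5.12 and 2.06. The ratios of Acta2 and of Rgs5 to Pdgfrb also overlapped between the groups. The ratio of Des to Pdgfrb was higher in every neomycin sample, at 0.179, 0.229 and 0.226 in control and 0.363, 0.377 and 0.412 in neomycin samples. Against the endothelial gene Pecam1 the direction for Kcnj8 was the opposite, at 1.29, 2.06 and 1.20 in control and 2.60, 3.51 and 3.45 in neomycin samples, again with no overlap. These ratios were chosen after the values were seen and are given with no test.

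Most other genes of the pericyte list did not pass the test. Of 28 genes, 27 were tested and 2 were called lower. By the adjusted p alone 5 were lower and 3 higher, and the median log2 fold change was -0.02. For this list and those below, the shares over all genes tested were 6.6% called lower and 2.24% called higher. By the adjusted p alone those shares were 16.1% lower and 12.9% higher, so the counts of this list were close to the background. Notch3, the receptor that maintains arterial smooth muscle, fell from 48.3 ± 8.05 to 31.8 ± 3.43 CPM (SD, n = 3), and the log2 value changed by -0.61 (edgeR adjusted p = 0.00283). Steap4, a metalloreductase, fell from 15.0 ± 4.53 to 8.53 ± 1.31 CPM (log2 fold change -0.82, edgeR adjusted p = 0.00914). Higd1b, a gene used to define capillary pericytes and named here after its values were seen, had 1, 11 and 14 reads in control and 2, 2 and 3 in neomycin samples and was too low to test.

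The other smooth muscle contractile genes and regulators, 30 in all, gave 1 called lower among 27 tested, and by the adjusted p alone 5 were lower and 4 higher, with a median log2 fold change of -0.02. The gene called was Ppp1r12b, a regulatory subunit of myosin phosphatase, at 4.13, 2.86 and 2.12 CPM in control and 1.04, 1.08 and 0.745 CPM in neomycin samples (log2 fold change -1.67, SE 0.30, edgeR adjusted p = 0.00184). Tagln, the actin-binding protein transgelin, was at 44.6 ± 4.74 and 44.0 ± 10.7 CPM (edgeR adjusted p = 0.936). Srf, the transcription factor that binds CArG boxes, was at 40.5 ± 2.14 and 40.0 ± 0.992 CPM (edgeR adjusted p = 0.898). Cnn1, the actin-binding protein calponin, had 11 to 27 reads per sample and Myocd, the coactivator of Srf in smooth muscle, 4 to 10, and Myocd was not tested. Of the genes past the adjusted p alone, chosen after their values were seen, Lmod1, the actin nucleator leiomodin, was at 35 ± 1.75 and 24.3 ± 1.48 CPM (log2 fold change -0.53, edgeR adjusted p = 0.000918), and Myl9, a myosin regulatory light chain, at 237 ± 25.1 and 293 ± 9.97 CPM (log2 fold change 0.30, edgeR adjusted p = 0.0197).

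Of 26 signals that recruit and hold mural cells, all were tested, 3 were called lower and 1 higher, and the median log2 fold change was -0.17. Pdgfb, the ligand of Pdgfrb, was at 19.3, 23.8 and 22.0 CPM in control and 17.7, 16.8 and 19.6 CPM in neomycin samples and did not pass (log2 fold change -0.27, edgeR adjusted p = 0.0714). Pdgfra, the related receptor of mesenchymal cells, did not pass either (log2 fold change -0.22, edgeR adjusted p = 0.0628). Angpt2, an angiopoietin of activated vessels, fell from 18.1 ± 3.34 to 7.44 ± 0.218 CPM (log2 fold change -1.28, edgeR adjusted p = 5.07e-05). The chemokine receptor Cxcr4 fell with a log2 fold change of -1.17 (edgeR adjusted p = 0.000179), while its ligand Cxcl12 rose from 72.1 ± 6.96 to 127 ± 15.2 CPM (log2 fold change 0.82, edgeR adjusted p = 0.000123). The remaining lower gene was Tie1, an endothelial receptor that is also on the endothelial list.

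Markers of some other cell types moved with the groups, and their part in the changes of Kcnj8 and Abcc9 was not tested. Of 25 endothelial markers 16 were called lower, with a median log2 fold change of -1.31. The largest falls were those of Gpihbp1, the lipoprotein lipase anchor of capillaries, from 5.10 ± 0.936 to 0.432 ± 0.176 CPM (log2 fold change -3.56, edgeR adjusted p = 6.86e-06), and Cldn5, a tight junction claudin, from 4.21 ± 1.03 to 0.402 ± 0.403 CPM (log2 fold change -3.40, edgeR adjusted p = 0.000448). Pecam1, an adhesion molecule of endothelial junctions, fell from 9.78 ± 2.79 to 1.49 ± 0.470 CPM (log2 fold change -2.71, edgeR adjusted p = 2.66e-05). Cdh5, vascular endothelial cadherin, fell from 8.81 ± 0.807 to 2.12 ± 0.212 CPM (log2 fold change -2.05, edgeR adjusted p = 3.99e-06). The summed level of the list was 429.9 to 492.9 CPM in control and 392.9 to 443.9 CPM in neomycin samples, and no marker was at 0 in every sample. Most of this sum was Emcn, the sialomucin endomucin, which was not called, at 252 ± 12.1 and 273 ± 26.2 CPM (edgeR adjusted p = 0.329). Per length, the ratio of Pecam1 to Pdgfrb was 0.0750, 0.0523 and 0.0969 in control and 0.0176, 0.0167 and 0.00967 in neomycin samples.

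Of 18 HC markers 16 were called lower, and their summed level was 1044 to 1217 CPM in control and 367.6 to 434.6 CPM in neomycin samples. Slc26a5, the motor protein of outer HCs, fell from 25.8 ± 2.33 to 1.61 ± 0.280 CPM, which follows the treatment labels. Of 15 macrophage markers 14 were tested and 6 were called higher. Their summed level was 215.1 to 279.6 CPM in control and 305.3 to 369.9 CPM in neomycin samples. The largest part of this sum was Lyz2, which was not called, at 124 ± 16.7 and 165 ± 15.5 CPM (SD, n = 3). The log2 fold change was above 0 for 12 of the markers tested. It was below 0 for 2, Csf1r (-0.05, edgeR adjusted p = 0.799) and Itgam (-0.17, edgeR adjusted p = 0.498). Fibroblast and otic mesenchyme markers gave 2 higher and 2 lower of 20, with a median log2 fold change of -0.20. Supporting cell (SC) markers gave 1 higher and 4 lower of 20, and glial markers 1 higher and 1 lower of 12 tested. Of 21 skeletal and cardiac muscle markers 10 were tested and 1 was lower, and Myod1, Pax7, Myh4 and Ckm had at most 3 reads in every sample.

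**Figure D5:**
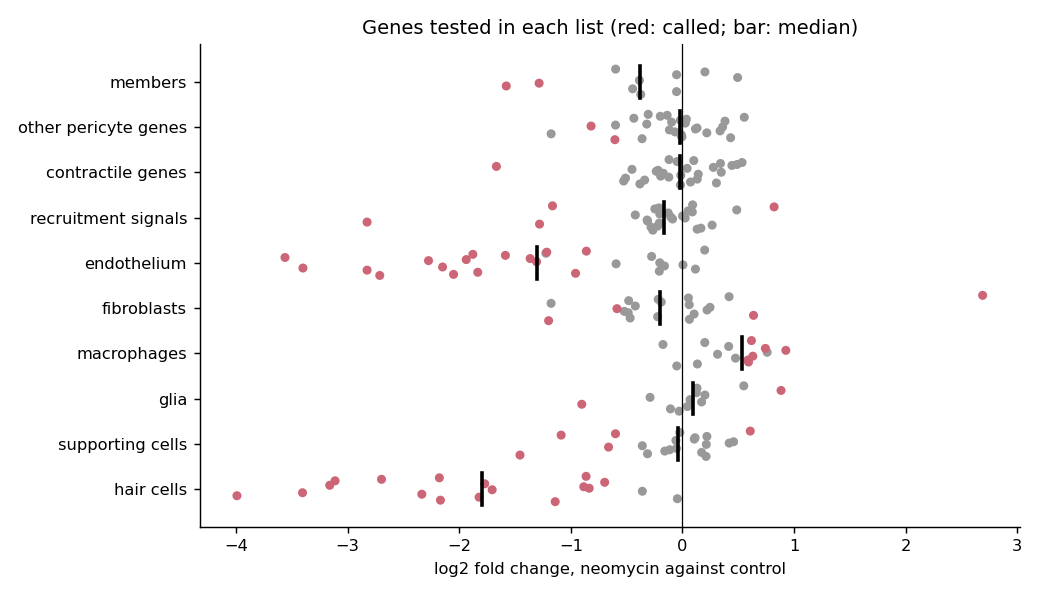
Log2 fold change in neomycin against control samples (horizontal axis) of every tested gene in each list (points, red where called by edgeR) with the list's median as a bar. The endothelial (-1.31) and HC (-1.80) medians lie far to the left of 0, that of the 10 members is at -0.38, and those of the other pericyte and contractile genes are at -0.02.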

How the data were processed

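RNA-seq was measured in 3 control and 3 neomycin samples. The authors deposited raw read counts per gene symbol. Per the study's methods and processing notes, they used CASAVA 1.8, Trimmomatic 0.23, HISAT2 on mm10 and HTSeq. Strand and multi-mapping settings are not given in the sources used here. Totals were 50471116 to 66068108 counts per sample, and no replicate pair agreed within sampling noise.

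The counts were fitted over all genes that passed filterByExpr with edgeR 4.0.16 in R 4.3.3 (TMM scaling, glmQLFit and glmQLFTest, Benjamini-Hochberg adjustment), without a replicate block. The script was tested on simulated data. DESeq2 1.42.0, limma-voom (limma 3.58.1), other scalings and filters, a gene length correction, a replicate block and leaving out each replicate were alternatives. Lists are described by counts and medians, with no set test. The members and lists were chosen with earlier results of these data known. All 10 members are named, and from each other list at most 5 called genes with the largest change, plus a fixed set of partners, paralogs and endothelial markers (Pecam1 and Cdh5 among them). Exceptions are stated as chosen after the values were seen, and Emcn, Lyz2, Csf1r, Itgam, Myod1, Pax7, Myh4 and Ckm were also named so. Gene coordinates and exon lengths came from GENCODE on GRCm38, in which 363 of 24421 symbols were not matched (older symbols were looked up in RefSeq), and promoter windows came from RefSeq.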

Additional observations from a re-analysis of the deposited data

How the results depend on the processing

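Across 15 alternatives for each of the 10 genes, 139 of 150 values kept their direction and side of the threshold of adjusted p, 7 newly passed it, 0 lost it and 4 turned sign. The sign turned for Rgs5 without control replicate 1 (0.27), for Anpep without control replicate 1 (0.049) and without neomycin replicate 1 (0.030), and for Vtn without neomycin replicate 2 (-0.018). The cause was not tested. The 6 alternatives in which Acta2 passed the adjusted p included DESeq2 (0.0416) and the gene length correction (0.0197), and the other newly passing value was that of Myh11 without neomycin replicate 3. With no fold change threshold, 1 member (Des) was called higher. With the longest annotated transcript as length, 6 of the 10 genes kept their rank of level.

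Deviations of same-numbered control and neomycin samples correlated at 0.165, 0.0264 and 0.0949, and those of differently numbered samples at -0.129 to 0.0325. By these values 5 of 6 samples correlated best with their own number. The 6 comparisons share the same correlations and are not independent, so this count cannot show pairing. Whether same-numbered samples were prepared as pairs was not tested. With the replicate block, 2 members were lower and 0 higher, and over all genes 376 were higher and 1089 lower, against 358 and 1055 without it. Leaving out 1 replicate gave 237 to 513 higher and 800 to 1159 lower. Among the alternatives that left out 1 replicate, log2 fold changes ran from -0.22 to 0.27 for Rgs5, from -0.14 to 0.049 for Anpep and from -0.018 to 0.30 for Vtn. Cnn1, Higd1b and Myocd had too few reads for small changes to be detectable.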
